A study of Mus musculus with 2 samples.

Results

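The miR-183 cluster (Mir183, Mir96 and Mir182) and the genes Mir204, Mir211 and Mir184 encode microRNAs (miRNAs) that are known from sensory epithelia, retina, pigment epithelium, choroid plexus, lens and cornea. These 6 members were taken by gene identifier from 1973 miRNA genes that were counted in the forebrain of mouse embryos, and all 6 had a row. They were chosen by name and not by their counts, though with earlier results of these data known. The assay, microRNA-seq, sequenced RNA shorter than 30 bases from healthy, untreated B6NCrl embryos on embryonic day 11.5 (E11.5). The series has 1 group of 2 libraries, replicate 1 from the pooled forebrains of 109 embryos and replicate 2 from those of 88, with males and females in both pools and no control group. Pooling leaves the variation between embryos unmeasured, and the labels give both pools the same donor entry, so SDs below cover only the spread between these libraries.

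A miRNA gene is transcribed into a hairpin, from which Dicer cuts a short duplex. One strand of the duplex is loaded into Argonaute and pairs with messenger RNAs through its seed, bases 2 to 8 from its 5′ end. The miR-183 cluster is a hallmark of sensory cells such as photoreceptors and hair cells, and is also known from the pineal gland. Mir204 and Mir211 lie within genes of TRPM ion channels and are known from retinal pigment epithelium, choroid plexus and, for Mir211, melanocytes, while Mir184 is known from lens and cornea.

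The mature sequences show which members could act on shared targets and which could be confused in the counts. Below is the arm known as the main product of each hairpin, from RefSeq on GRCm38.p6, the assembly that mm10 names, 5′ to 3′ with the seed in capitals. All 6 members were found there.
miR-183-5p (chr6:30169711-30169732, minus strand): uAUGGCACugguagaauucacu
miR-96-5p (chr6:30169506-30169528, minus strand): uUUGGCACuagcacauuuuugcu
miR-182-5p (chr6:30165962-30165986, minus strand): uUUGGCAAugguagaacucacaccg
miR-204-5p (chr19:22750610-22750631, plus strand): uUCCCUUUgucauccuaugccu
miR-211-5p (chr7:64205831-64205852, plus strand): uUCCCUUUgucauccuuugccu
miR-184-3p (chr9:89802263-89802284, minus strand): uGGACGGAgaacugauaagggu

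miR-204-5p and miR-211-5p carried the same seed and were identical at 21 of 22 bases. Their single difference was A17U, with positions counted from 1 at the 5′ end and the first-named miRNA's base given first. The 3 miRNAs of the miR-183 cluster had similar but not identical seeds. miR-182-5p and miR-183-5p shared 5 of 7 seed bases (differences U2A and A8C) and 18 of the 22 bases compared. miR-182-5p and miR-96-5p shared 6 seed bases (A8C), as did miR-183-5p and miR-96-5p (A2U), but these pairs shared only 12 of 23 and 13 of 22 bases. The seed of miR-184-3p had at most 1 base in common with that of any other member at the same position. Outside the members, Gm24195 carries the seed of miR-96-5p and Mir7670 that of miR-204-5p and miR-211-5p in RefSeq, and neither had a count in these libraries.

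The hairpins of Mir204 and Mir211 show where the close pair can be told apart, with both mature arms in capitals.
Mir204 (chr19:22750605-22750672, plus strand): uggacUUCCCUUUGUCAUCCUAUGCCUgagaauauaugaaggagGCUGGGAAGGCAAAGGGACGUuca
Mir211 (chr7:64205806-64205911, plus strand): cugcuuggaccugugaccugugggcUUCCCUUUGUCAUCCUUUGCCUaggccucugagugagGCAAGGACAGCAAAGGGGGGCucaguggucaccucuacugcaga

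The longest stretch that these hairpins shared was 17 bases, the first 16 bases of the 5p arm and the base before it. A 5p read that ends before base 17 therefore matches both places. Among 1004 other miRNA hairpins in RefSeq, no stretch of 20 bases was shared with any member, and the longest shared stretch was 10 bases for Mir182, Mir183 and Mir96 and 11 for Mir184. Reads that map to several places were left out of the gene counts by the authors' processing, so shortened reads of Mir204 and Mir211 can be missing, whereas a full-length read of a member had no second match among these hairpins. The counts add both arms of a hairpin together, and the share of each arm cannot be read from them.

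The sense counts of miRNA genes summed to 1281201 in replicate 1 and to 1297647 in replicate 2. Levels are in CPM, the count of a gene scaled by the library's sum and given in parts of 1e+06. A gene with 0 counts may have a level as high as 3 counts, which is 2.34 CPM for replicate 1 and 2.31 CPM for replicate 2. Of a list of forebrain miRNAs, 7 of 8 genes with a row reached 2 CPM in both libraries, with summed levels of 37929 and 32285 CPM in replicates 1 and 2. Mir92b and Mir149 led this list in counted reads. The matched copies of Mir9 and Mir124a ranged from 1.56 CPM for Mir124a-1 to 479 CPM for Mir9-3 in the mean. Near-identical copies of these genes exist, and reads that map to several places were left out of the counts. Levels of Mir9 and Mir124a, and the list's sum, can therefore be too low, and their rank against Mir92b and Mir149 is not known. Hox cluster miRNAs, from genes used in the hindbrain and trunk, summed to 209.96 and 84.0 CPM, and blood miRNAs to 989 and 708 CPM. In such bulk tissue, fewer cells of a type and less of an RNA in each cell cannot be told apart.

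In the E11.5 forebrain libraries the miR-183 cluster was abundant, Mir204 was moderately abundant, Mir211 was low and Mir184 was at the edge of detection. Of the 6 members, 5 reached 2 CPM in both libraries, against 21.5% of all miRNA genes (424 of 1973). Together they made up 0.390% of the counts in replicate 1 (95% exact Clopper-Pearson interval 0.380 to 0.401%) and 0.394% in replicate 2 (0.384 to 0.405%). The miR-183 cluster alone held 0.347% (0.337 to 0.357%) and 0.360% (0.349 to 0.370%). These intervals, like all intervals below, cover counting error only and not the spread between pools. They treat every read as an independent molecule, which PCR copies of a read are not, so they can be too narrow.

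**Figure D1:**
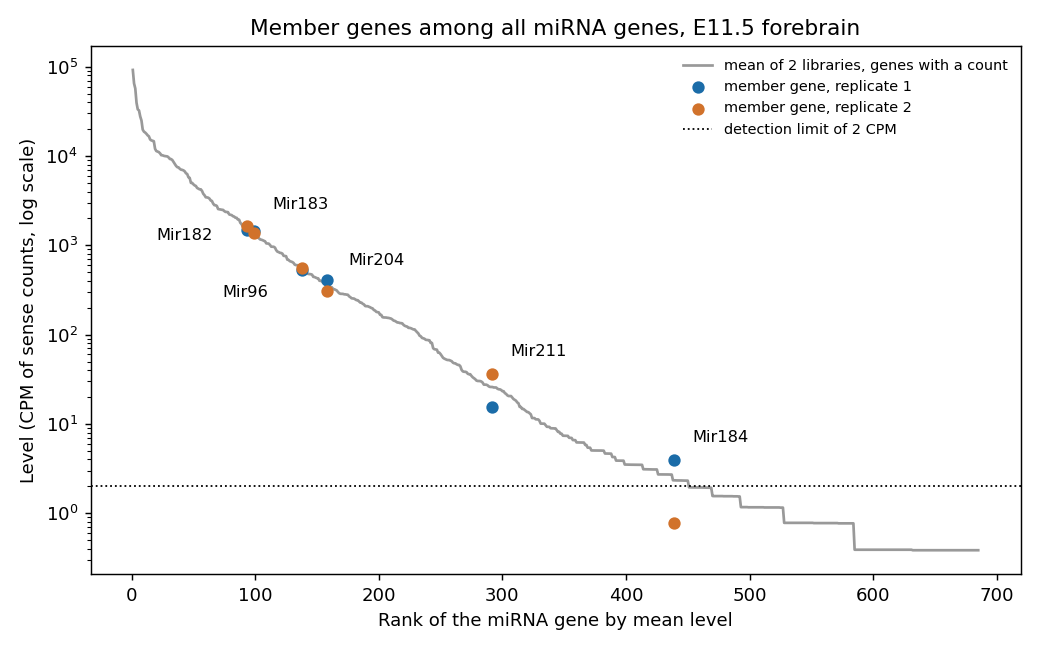
Level of each member gene in replicate 1 and replicate 2 (points, CPM on a log axis) at its rank by mean level, with the mean level of the other miRNA genes that had a count (grey line). The members spread from rank 93 (Mir182) to rank 439 (Mir184), and the libraries lie visibly apart for Mir211 and Mir184.

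The miR-183 cluster stands on the minus strand of chromosome 6 within 3820 bp, between genes and in no annotated exon or intron. Along the direction of transcription, Mir183 (ENSMUSG00000065619, 30169668 to 30169737) comes first, Mir96 (ENSMUSG00000065586, 30169446 to 30169551) follows after 116 bp, and Mir182 (ENSMUSG00000076361, 30165918 to 30165992) lies 3453 bp further on. The nearest other gene is Rncr4, a long noncoding RNA known from the retina, which runs in the opposite direction 3156 bp from Mir183. The nearest protein-coding gene is Nrf1, a transcription factor of mitochondrial gene expression, 12460 bp from Mir182.

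Mir182, which in the retina is among the most abundant miRNAs of photoreceptors, had 1903 counts or 1485 CPM in replicate 1 (1419 to 1554 CPM) and 2140 counts or 1649 CPM in replicate 2 (1580.1 to 1720.5 CPM). Mir183, the first hairpin of the cluster, had 1869 counts or 1459 CPM in replicate 1 (1393 to 1526 CPM) and 1808 counts or 1393 CPM in replicate 2 (1329.8 to 1459 CPM). Mir96, whose seed mutations cause hearing loss in mouse and human, had 675 counts or 527 CPM in replicate 1 (488 to 568 CPM) and 719 counts or 554 CPM in replicate 2 (514 to 596 CPM). Mir96 was thus the lowest of the 3 in each library, and its values did not overlap those of the other cluster members.

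In means, Mir182 had 1567 ± 116 CPM (SD, n = 2, as for every value with ± below), Mir183 1426 ± 46.3 CPM and Mir96 540.5 ± 19.3 CPM. Mir182 took 42.8% of the cluster's counts in replicate 1 (41.3 to 44.3%) and 45.9% in replicate 2 (44.4 to 47.3%). Mir183 took 42.0% (40.6 to 43.5%) and 38.7% (37.3 to 40.2%). Mir96 held 15.2% (14.1 to 16.3%) and 15.4% (14.4 to 16.5%), the steadiest share of the 3. The level did not follow the order on the chromosome, since the middle hairpin had the fewest counts. Mature miRNAs of these genes are of nearly equal length, so counts were compared between genes without a length correction, and differences in ligation efficiency between sequences were not measured.

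**Figure D2:**
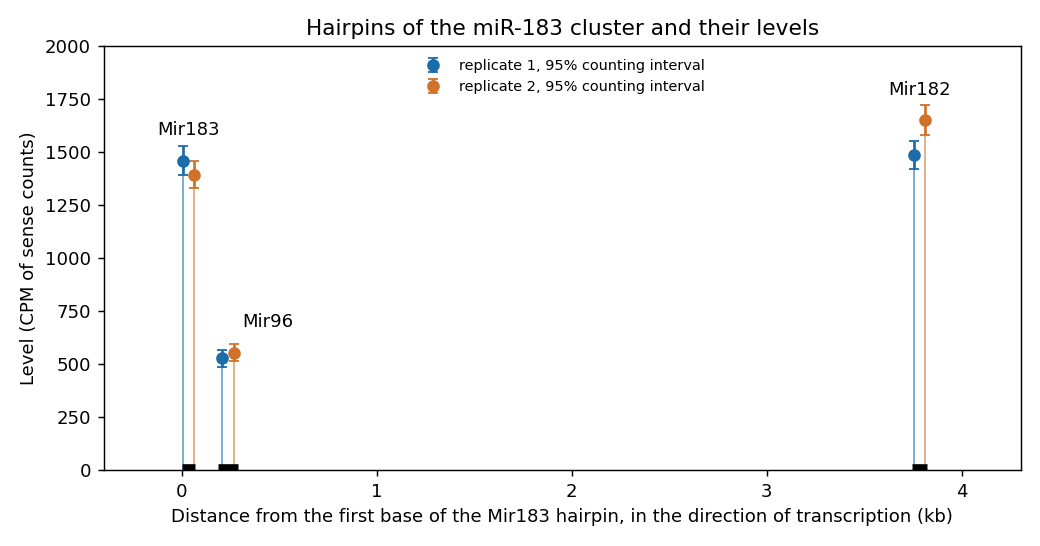
Hairpins of the miR-183 cluster drawn to scale (black bars, distance in kb from the first base of Mir183 along transcription), with the level of each in both libraries (points, CPM, bars are 95% exact Clopper-Pearson intervals). Mir183 and Mir182 stand from 1393 to 1649 CPM and Mir96, next to Mir183, at 527 and 554 CPM.

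Which of Mir182 and Mir183 was higher could be read only in replicate 2. The ratio of Mir182 to Mir183 was 1.02 in replicate 1 (0.955 to 1.09), an interval that includes 1, and 1.18 in replicate 2 (1.11 to 1.26). Mir183 exceeded Mir96 by a ratio of 2.77 in replicate 1 (2.53 to 3.03) and of 2.51 in replicate 2 (2.31 to 2.75). Mir182 exceeded Mir96 by 2.82 (2.58 to 3.08) and 2.98 (2.73 to 3.24).

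Mir204 (ENSMUSG00000065507) stands on the plus strand of chromosome 19 from 22750605 to 22750672, in an intron of Trpm3, which runs on the same strand and encodes a calcium-permeable channel. It had 531 counts or 414 CPM in replicate 1 (379.95 to 451 CPM) and 401 counts or 309 CPM in replicate 2 (279.5 to 341 CPM), a mean of 362 ± 74.6 CPM. The intervals of the libraries did not overlap, and replicate 1 was the higher. Mir204 followed Mir96 in the order of levels, with a ratio of Mir96 to Mir204 of 1.27 in replicate 1 (1.13 to 1.43) and 1.79 in replicate 2 (1.58 to 2.03).

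Mir211 (ENSMUSG00000065585) stands on the plus strand of chromosome 7 from 64205806 to 64205911, in an intron of Trpm1, the channel of retinal bipolar cells and melanocytes. Trpm1 runs on the same strand. It had 20 counts or 15.6 CPM in replicate 1 (9.54 to 24.1 CPM) and 47 counts or 36.2 CPM in replicate 2 (26.6 to 48.2 CPM), a mean of 25.9 ± 14.6 CPM. Here replicate 2 was the higher, again without overlap of the intervals. RNA of the host genes Trpm3 and Trpm1 was not measured in these libraries.

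Mir184 (ENSMUSG00000065596) stands on the minus strand of chromosome 9 from 89802260 to 89802328, between genes, 542 bp from the noncoding RNA 1700017I07Rik on the opposite strand. It had 5 counts or 3.90 CPM in replicate 1 (1.27 to 9.11 CPM) and 1 count or 0.771 CPM in replicate 2 (0.0195 to 4.29 CPM). The intervals overlapped, and the count in replicate 2 was under what a count of 0 allows. Mir184 was the single member under 2 CPM in either library.

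The order of mean levels was Mir182, Mir183, Mir96, Mir204, Mir211 and Mir184, at ranks 93, 99, 138, 158, 292 and 439 of 1973 genes. This order was the same in both libraries. Genes nearest in mean level, the one measure of likeness that 2 libraries of 1 group allow, were Mir494 (1594 ± 20.96 CPM) and Mir467d (1566 ± 142 CPM) beside Mir182. Mir183 stood between Mir300 (1466 ± 171 CPM) and Mir370 (1348 ± 44.0 CPM), and Mir96 between Mir1306 (564 ± 35.3 CPM) and Mir185 (521 ± 49.7 CPM). Mir204 stood between Mir329 (364 ± 47.7 CPM) and Mir199b (359.9 ± 70.8 CPM), and Mir211 between Mir582 (25.96 ± 3.60 CPM) and Mir3064 (25.6 ± 6.81 CPM). Mir6907 came just before Mir184, and Mir28b had the same counts as Mir184. For each member, the library values overlapped the range of at least 1 of these neighbours, which their choice by mean level in the same libraries makes likely.

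Between the libraries, Mir211 was lower in replicate 1 and Mir204 higher, while the miR-183 cluster differed little. A two-sided exact binomial test compared each gene's counts with the library totals over the 398 miRNA genes with 10 counts or more, 5 members among them, with Benjamini-Hochberg adjustment. At an adjusted p under 0.05 and a difference of 2-fold or more, 2.76% of the tested genes were called (11 of 398), and 1 of the 5 tested members, Mir211. In its direction, lower in replicate 1, 0.503% of the tested genes were called (2 of 398). Mir211 had a log2 ratio of replicate 1 over replicate 2 of -1.19 (95% interval -2.05 to -0.43), with an adjusted p of 0.00600 by the exact binomial test. That test covers counting error alone and compares 2 libraries, not conditions. With the spread between libraries estimated in edgeR (a biological coefficient of variation of 10.3%), the edgeR exact test gave Mir211 an adjusted p of 0.158, so the call was lost. That spread is 1 common value for all genes, taken from the same 2 libraries. It therefore includes the differences under test, and the edgeR result is not an independent check.

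Without a minimum fold, 28.4% of the tested genes passed (113 of 398) and 3 of the 5 tested members. Of the tested genes 20.6% were higher in replicate 1 by this rule, as was 1 member, and 7.79% were lower, as were 2 members. Mir204 was higher in replicate 1 by a log2 ratio of 0.42 (0.23 to 0.61), with an adjusted p of 6.26e-05 by the exact binomial test. Mir182 was lower in replicate 1 by a log2 ratio of -0.15 (-0.24 to -0.06), with an adjusted p of 0.00433 by the same exact test. Both differences are smaller than 2-fold, and in the edgeR exact test neither passed, with an unadjusted p of 0.129 for Mir204 and 0.315 for Mir182. Mir183 had a log2 ratio of 0.07 (-0.03 to 0.16) and Mir96 of -0.07 (-0.23 to 0.08), and neither passed the exact binomial test. Mir184 had too few counts to be tested, with a log2 ratio of 1.89 (-0.82 to 7.90).

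**Figure D3:**
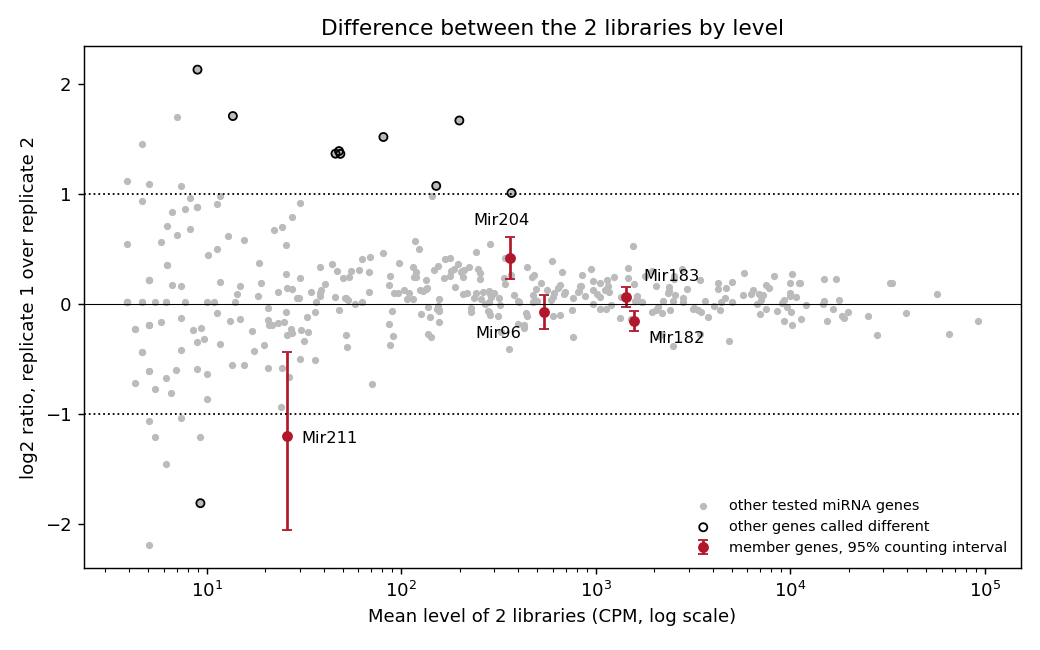
log2 ratio of replicate 1 over replicate 2 against the mean level (CPM, log axis) for the 398 tested miRNA genes, with the 5 tested members in red (bars are 95% counting intervals) and other called genes as open circles. Mir211 lies below the dotted 2-fold line at -1.19, and the other tested members lie between -0.15 and 0.42.

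Some other cell type markers also differed between the libraries in the exact binomial test, which covers counting error alone. Of 4 tested Hox cluster miRNAs, 2 were called, both higher in replicate 1 (Mir10a at 120.2 and 41.6 CPM, Mir10b at 66.3 and 25.4 CPM), against 2.26% of all tested genes called in that direction (9 of 398). Mir615 at 11.7 and 8.48 CPM and Mir196b at 8.59 and 5.39 CPM did not pass. Of 5 tested blood miRNAs, 1 was called, Mir451a of red blood cells, at 493 and 244 CPM. Its log2 ratio of 1.01 fell under 2-fold with TMM scaling (0.95). Mir144 and Mir486, also known from red blood cells, did not pass, at 88.2 and 91.7 CPM and at 25.0 and 35.4 CPM. Of 6 tested forebrain genes, 4 passed without a minimum fold, all higher in replicate 1 (3 with TMM scaling), and 0 were called at 2-fold. Without a minimum fold, 20.6% of all tested genes passed in that direction (82 of 398). Whether such differences in the dissected tissue have a part in those of Mir211 and Mir204 was not tested.

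The ratio of 2 members within a library does not depend on how the libraries are scaled. Of 15 pairs of members, 9 had ratios that differed between the libraries in a two-sided Fisher's exact test with Benjamini-Hochberg adjustment over the pairs. The pairs reuse the counts tested gene by gene above and share members, so they are not separate results. Pairs of other miRNA genes were not tested, so no share over all pairs stands beside this count. Like the binomial test, Fisher's test covers counting error alone. The largest difference in ratio among pairs without Mir184 was that of Mir204 and Mir211, the pair with the same seed. Mir204 exceeded Mir211 by a ratio of 26.6 in replicate 1 (17.0 to 43.8) and of 8.53 in replicate 2 (6.30 to 11.8), a 3.11-fold difference (adjusted p = 0.000148 in Fisher's exact test). All 5 pairs with Mir211 differed between the libraries, the pair with Mir184 included. With Bonferroni adjustment 2 of these 5 pairs passed, those with Mir183 and Mir204, and the pairs with Mir182, Mir96 and Mir184 did not.

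Within the miR-183 cluster, 1 of 3 pairs differed. The ratio of Mir182 to Mir183 was 1.16-fold lower in replicate 1 than in replicate 2 (adjusted p = 0.00257 in Fisher's exact test). The ratios of Mir182 to Mir96 (1.06-fold apart, adjusted p = 0.384) and of Mir183 to Mir96 (1.10-fold apart, adjusted p = 0.164) did not pass the same exact test. Against Mir204, all 3 cluster members stood relatively lower in replicate 1, by 1.49-fold for Mir182, 1.28-fold for Mir183 and 1.41-fold for Mir96, with adjusted p of 8.71e-07, 0.00250 and 0.000286 in Fisher's exact test. The test counts reads of 2 libraries, and the spread between more pools is not known from it.

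**Figure D4:**
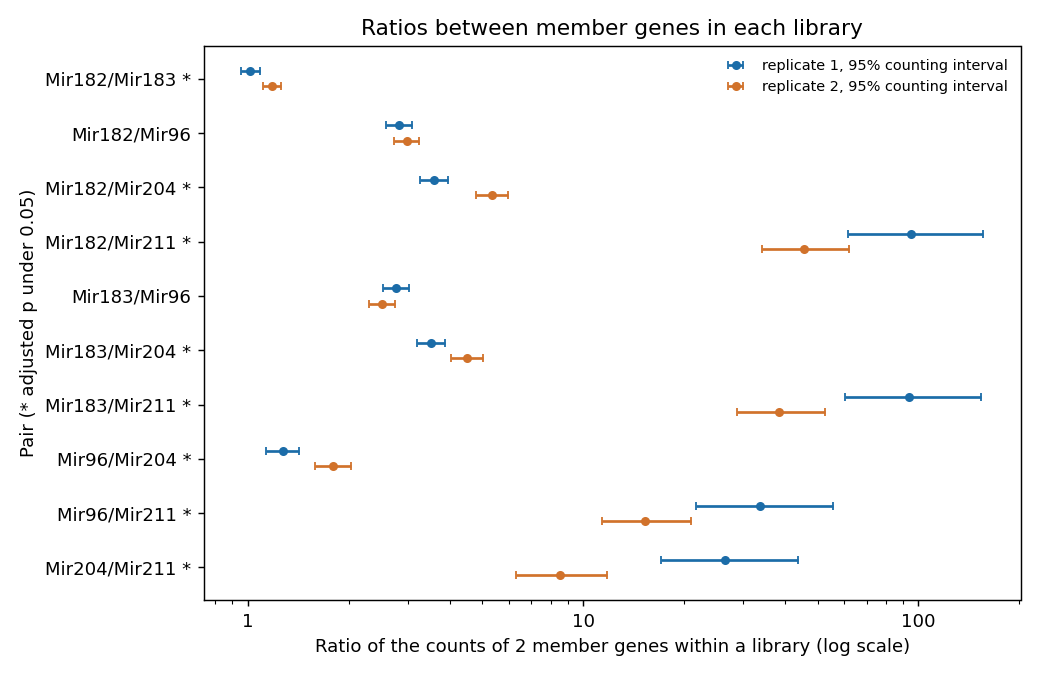
Ratio of the counts of 2 member genes within replicate 1 and replicate 2 (points on a log axis, bars are 95% exact Clopper-Pearson intervals) for the 10 pairs without Mir184, with an asterisk where the libraries differed in Fisher's exact test. The libraries lie furthest apart for the pairs with Mir211, and pairs of Mir96 with Mir182 or Mir183 overlap.

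Lists of miRNAs known from tissues that express the members were set beside them. The choroid plexus and multiciliated epithelium list held Mir449a, Mir449b and Mir449c of Cdc20b, Mir34b and Mir34c, and Mir448, Mir764, Mir1264, Mir1298 and Mir1912, which lie in the choroid plexus serotonin receptor gene Htr2c. Of its 10 genes, 8 reached 2 CPM in both libraries, and the list's summed level was 4760 and 4965 CPM in replicates 1 and 2, against 3905 and 3943 CPM for the 6 members. Mir449a, a miRNA of ciliated epithelia, lies on chromosome 13 (113037534 to 113037624). Its level was 3284 CPM in replicate 1 and 3397 CPM in replicate 2, above every member in both. Mir34c, of the same seed family, had 1278 and 1389 CPM, the latter within the counting interval of Mir183 in that library. Of the 5 Htr2c miRNAs, Mir1298 was the highest at 114 and 106 CPM. Of the 8 tested genes of the list, 0 passed the exact binomial test after adjustment, with or without a minimum fold. Among all tested genes, 28.4% passed without a minimum fold (113 of 398) and 2.76% were called at 2-fold (11 of 398). With TMM scaling 2 passed without a minimum fold, Mir449a at a log2 ratio of -0.12 and Mir34c at -0.19.

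All 7 genes of the surface and sensory epithelium list, which holds the miR-200 family, Mir203 and Mir205, reached 2 CPM in both libraries. Their summed level was 8297 and 7756 CPM in replicates 1 and 2, led by Mir203 of stratified epithelium at 2629 and 2477 CPM and Mir429 of the miR-200 family at 2150 and 1744 CPM. At an adjusted p under 0.05 with no minimum fold, Mir429 was higher in replicate 1 and Mir205 lower, and 0 of the 7 were called at 2-fold. Over all tested genes the shares were 28.4% without a minimum fold (113 of 398) and 2.76% at 2-fold (11 of 398). Of the pituitary and pineal list, 2 of 4 genes were matched by symbol. These were Mir7b at 629 and 673 CPM and Mir375, known from endocrine cells, at 276 and 220 CPM. Mir375 was higher in replicate 1 without a minimum fold (log2 ratio of 0.33, adjusted p of 0.018 by the exact binomial test). With TMM scaling it did not pass. Over all tested genes, 20.6% passed in that direction without a minimum fold (82 of 398). Mir7b did not pass, and neither gene was called at 2-fold. Mir7a-1 and Mir7a-2 have rows under the older symbols Mir7-1, at 400 and 392 CPM, and Mir7-2, at 223 and 182 CPM. The median log2 ratio of the 5 tested members was -0.07, the value of Mir96, within a range from -1.19 to 0.42. List medians were 0.03 for choroid plexus, 0.09 for surface and sensory, 0.11 for pituitary and pineal and 0.08 for blood. The forebrain list had 0.24 and the Hox list 1.00, against 0.07 for all tested genes. Which cells of the dissected forebrain held the members was not examined.

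**Figure D5:**
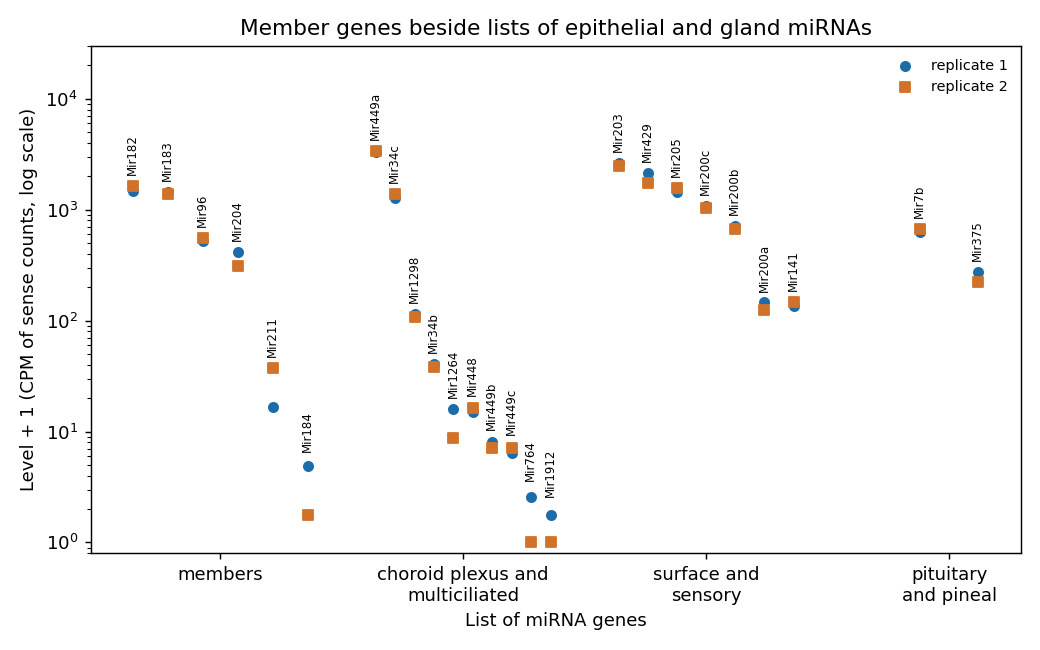
Level plus 1 (CPM, log axis) in replicate 1 (circles) and replicate 2 (squares) of the 6 members and of the genes of 3 lists, ordered within each by replicate 1. Mir7a-1 and Mir7a-2 are not drawn. Mir449a lies above all members, and Mir203 and Mir429 lie above Mir182 in both libraries.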

How the data were processed

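Per the labels and deposited notes, the authors aligned reads to mm10 and counted them per miRNA gene of GENCODE M4. Their aligner and counter were not given in the sources used here. Deposited counts are raw and stand in 3 columns (both strands, sense, opposite), of which the sense column was used. The 4 summary rows were left out of totals. Multimapping reads, 29.5% and 29.2% of the reads of replicates 1 and 2, are not in the gene counts.

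Symbols and positions came from GENCODE M21 on GRCm38 (1894 of 1973 identifiers matched), sequences from RefSeq. Genes with 10 counts or more were tested, with 0.5 counts added for log2 ratios. With 1 library on each side, a quasi-likelihood test could not be fitted. The exact binomial test was tried on simulated counts that held counting error only. The simulation therefore cannot show how the test behaves with spread between libraries. Alternatives covered scaling (edgeR 4.0.16 TMM, DESeq2 1.42.0), the strand column, filters, fold, pseudocount and detection limit. Scripts ran in Python 3.11.15 with scipy 1.17.1 and R 4.3.3.

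The members and 6 lists (41 genes, 38 matched to a row by symbol) were chosen with earlier results of these data known. Mir7a-1 and Mir7a-2, and Mir9-1 of the forebrain list, were not matched and are left out of the list sums. Mir7a-1 and Mir7a-2 have rows under older symbols. Named were the members, their neighbours in mean level, genes sharing a seed, and up to 2 genes of each list. Mir449b, Mir449c, Mir34b, Mir448, Mir764, Mir1264, Mir1912, Mir205, Mir9, Mir124a, Mir615, Mir196b, Mir144 and Mir486 were named as list members outside this rule, and Mir1298, Mir7a-1 and Mir7a-2 after their values were seen.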

Additional observations from a re-analysis of the deposited data

Results flagged for a closer look

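Mir182 had 4 counts on the opposite strand in replicate 2, a column that the comparisons do not use, which is above the 3 counts that a count of 0 allows. It had 0 such counts in replicate 1. Mir183 had 1 in replicate 1, and the other members had 0 in both libraries. Over all miRNA genes, 3.61% and 3.22% of the counts in replicates 1 and 2 were on the opposite strand.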

How the results depend on the processing

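Of the 6 members, 5 passed detection limits of 1, 5 and 10 CPM and with the unstranded column. The share of the miR-183 cluster became 0.342% with the unstranded column and 0.600% when the 10 most abundant genes were left out of the total, and that of all 6 members 0.379% and 0.666%. Single libraries gave 0.347 to 0.360% for the cluster and 0.390 to 0.394% for the 6 members. Mir211 was called with TMM scaling, DESeq2 size factors, the unstranded column, limits of 1 or 50 counts and a minimum of 1.5-fold. With no minimum fold 3 members passed (Mir182, Mir204 and Mir211; 113 genes in all), and in the edgeR exact test 0 members were called, with 1 at an unadjusted p under 0.05 (Mir211) and 6 genes called in all against 11. TMM scaling shifted log2 ratios by -0.07 and turned Mir183 to -0.000902, and no other member changed direction under the scalings tried. Of 15 pairs, 9 differed with the unstranded column and 6 with Bonferroni adjustment, and the 3 lost pairs all hold Mir211. Depth limits Mir184, with 6 counts in total, and Mir211, with 67. No paired analysis was possible because the series has 1 group.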
